A study of Mus musculus with 6 samples.

Results

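The ULK complex starts autophagy. Its 5 genes, Ulk1, Ulk2, Atg13, Rb1cc1 and Atg101, were chosen by name, with earlier results of these data known. They are among 19060 genes in the counts table, which the authors had already filtered, and all 5 passed a further filter on low counts. RNA came from the proximal end of the incisor of 3 control mice (Fgfr1fl/fl, labelled wild type) and 3 mutant mice (Gli1-Cre;Fgfr1fl/fl, the Gli1CreER line), both carrying floxed Fgfr1 alleles and both injected with tamoxifen at 1 month of age, and was collected 1 week later. Only the mutant mice carried the driver, whose Cre acts in Gli1+ cells, while the RNA came from whole tissue, so other cells of the incisor kept their Fgfr1 alleles. The mice were of a mixed background, and the labels do not say that any sample was pooled.

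Autophagy delivers cytoplasm and organelles to the lysosome, and the ULK complex is the point at which nutrient signals set it going. ULK1 and its close relative ULK2 are serine/threonine kinases that work in a complex with the regulatory subunit ATG13, the large scaffold FIP200 (encoded by Rb1cc1) and ATG101, which binds and stabilises ATG13. The kinase complex mTORC1 phosphorylates ULK1 and ATG13 and holds the complex inactive when amino acids are plentiful, whereas AMPK phosphorylates ULK1 when energy is low. Much of this control acts on proteins, and the values here are transcript levels.

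The 3 control libraries held between 31060222 and 32712448 counts and the 3 mutant libraries between 5276557 and 11819576, so every mutant value rests on fewer reads. Because depth followed genotype, an effect of genotype cannot be told apart from any other difference between the control and mutant sets of libraries. Between 14.5 and 27.3% of genes were at 0 in the mutant libraries, the most in mutant sample 1, against 2.18 to 2.44% in the controls. These shares are over the authors' filtered table, in which a gene can be present through its control counts alone. Levels are given as CPM, counts scaled to library size with upper-quartile factors, and changes as the log2 fold change of mutant against control from edgeR's quasi-likelihood test over the 15826 genes that passed the filter. The targeted gene, Fgfr1, with samples always given in the order 1, 2 and 3, had 529, 924 and 434 CPM in the controls, against 148, 318 and 262 CPM in the mutants, a log2 change of -1.37 (standard error 0.40, adjusted p = 0.0881, edgeR), or -0.74 once each sample was corrected for its trend with gene length and GC content (adjusted p = 0.261, edgeR). Its highest mutant value stood below its lowest control value. Markers of the labelled tissue were present in every sample: the mesenchymal list (Col1a1, Col1a2, Vim, Pdgfra, Twist1) summed to between 20230 and 61703 CPM, and the ameloblast list (Amelx, Ambn, Enam) to between 30041 and 117679 CPM, so the tissue held enamel epithelium as well. Several marker sums separated the genotypes. The ameloblast sum was 83684 to 117679 CPM in the control and 30041 to 68143 in the mutant samples, with 2 of 3 genes lower without overlap, the endothelial sum (Pecam1, Cdh5, Kdr) was 106 to 195 against 75.1 to 96.4, with 2 of 3 lower, and the dental epithelial sum (Krt14, Krt5, Cdh1, Epcam) was 1485 to 3021 against 1341 to 1439, with 2 of 4 lower. The erythroid sum (Hba-a1, Hba-a2, Hbb-bs, Hbb-bt, Alas2) was higher, at 926 to 2558 CPM in the mutant against 380 to 823 in the control samples, though 1 of its 5 genes was higher and 1 lower without overlap. The sum of Gli1 and Ptch1 was 222 to 339 CPM in the control and 165 to 180 in the mutant samples, with 1 of 2 lower without overlap. None of these markers was at 0 in any sample. Their part in the values of the ULK complex was not tested, and in bulk tissue fewer cells of a type and less RNA per cell cannot be told apart.

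The promoters of the kinase pair are shown because Ulk1 and Ulk2 had the smallest p-values among the 5 genes. Each sequence runs 5′ to 3′ on the gene's own (minus) strand of GRCm38.p6, from 250 bases before to 50 bases after the start of transcription in RefSeq, and capitals mark the GC box GGGCGG, the motif of SP/KLF factors, found on either strand (CCGCCC as written here). The window of Ulk1 is chr5:110810032-110810331 and that of Ulk2 is chr11:61855043-61855342.
Ulk1: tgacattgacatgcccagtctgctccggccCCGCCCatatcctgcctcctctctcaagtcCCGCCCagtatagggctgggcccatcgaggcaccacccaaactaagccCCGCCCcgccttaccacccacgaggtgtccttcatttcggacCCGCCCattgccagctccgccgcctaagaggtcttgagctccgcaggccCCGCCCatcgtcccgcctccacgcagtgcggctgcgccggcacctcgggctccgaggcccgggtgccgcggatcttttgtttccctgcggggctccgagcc
Ulk2: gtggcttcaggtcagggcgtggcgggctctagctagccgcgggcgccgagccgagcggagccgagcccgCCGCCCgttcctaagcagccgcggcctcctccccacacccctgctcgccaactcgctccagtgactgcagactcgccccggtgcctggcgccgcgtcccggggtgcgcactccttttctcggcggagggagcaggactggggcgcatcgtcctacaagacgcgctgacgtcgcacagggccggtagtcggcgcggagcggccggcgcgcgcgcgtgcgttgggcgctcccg
The Ulk1 window held 5 GC boxes and the Ulk2 window 1, while the windows of Atg13 and Atg101 held 0. Of 32851 promoter windows of the same length, 35.7% held at least 1. The E-box core CACGTG, bound by TFEB and its relatives, the forkhead motif GTAAACA and the cyclic AMP response element TGACGTCA were found in 7.15, 3.65 and 1.79% of these windows and matched in none of the 4 windows searched. The windows differed in base composition, with a GC content of 68.0% for Ulk1, 74.7% for Ulk2, 62.0% for Atg101 and 49.0% for Atg13. These matches describe letters in a window and were not compared with expression.

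Among the kinases, Ulk1 showed the larger difference. Ulk1, which lies on the minus strand of chromosome 5 (GRCm38, 110784488 to 110810097), had 1056, 2114 and 1541 counts in control samples 1, 2 and 3 and 72, 246 and 289 in mutant samples 1, 2 and 3. The smallest of these, 72, has a 95% Poisson interval of 56.3 to 90.7 counts, which covers counting error only. After scaling these were 30.8, 58.1 and 44.5 CPM against 15.7, 21.0 and 29.1 CPM. The highest mutant sample, 29.1 CPM, stood just under the lowest control sample, 30.8 CPM, so the groups did not overlap but came close. The mean went from 44.5 ± 13.7 to 21.9 ± 6.75 CPM (SD, n = 3 each), 49.4% of the control mean. The log2 change was -1.01 with a standard error of 0.36 (edgeR, unadjusted p = 0.0229, adjusted p = 0.159).

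Ulk2, on the minus strand of chromosome 11 (61775649 to 61855073), encodes the kinase that shares much of ULK1's role. It had 42.0, 58.7 and 41.7 CPM in the controls, against 31.0, 33.3 and 29.6 CPM in the mutants. The genotypes did not overlap, and the mutant values were the tightest of any member, with a coefficient of variation of 5.93% against 20.5% in the controls. The log2 change was -0.60 with a standard error of 0.26 (edgeR, unadjusted p = 0.0521, adjusted p = 0.254). Control sample 2 was the highest control for both kinases, as it was for Atg13 and Rb1cc1, and it was the lowest for Atg101. With control counts thinned to the mutant depth, the log2 change was -1.01 for Ulk1 and -0.62 for Ulk2, close to the values at full depth.

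Of the other subunits, Atg13 was lower in every mutant sample, while Rb1cc1 and Atg101 overlapped between the genotypes. Atg13, the regulatory subunit, on the minus strand of chromosome 2 (91674618 to 91710576), had 38.6, 47.6 and 40.7 CPM in the controls, against 20.3, 38.3 and 16.6 CPM in the mutants. Mutant sample 2 was almost level with control sample 1, and the other two mutant samples were far lower. The log2 change of Atg13 was -0.75 (standard error 0.37, unadjusted p = 0.0739, adjusted p = 0.307, edgeR). Rb1cc1, on the plus strand of chromosome 1 (6206197 to 6276648), encodes FIP200, the scaffold to which autophagy receptors also bind. It had 18.6, 32.7 and 19.8 CPM in the controls, against 22.0, 21.1 and 48.4 CPM in the mutants. The groups overlapped: mutant samples 1 and 2 lay within the control range, and mutant sample 3 lay above it. Its log2 change was 0.37 (standard error 0.43, unadjusted p = 0.425, adjusted p = 0.727, edgeR). Without mutant sample 3 the log2 change of Rb1cc1 was -0.15, so its direction rested on that sample. An antisense gene, 4732440D04Rik, shares 558 exonic bases with Rb1cc1, and whether the counting used strand is not given in the sources used here.

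Atg101, on the plus strand of chromosome 15 (101284272 to 101290945), encodes the partner that stabilises ATG13. It had 25.5, 14.7 and 21.9 CPM in the controls, against 39.9, 21.5 and 9.07 CPM in the mutants. The mutant samples enclosed the whole control range, with mutant sample 1 above it and mutant sample 3 below it. Its log2 change was 0.18 with a standard error of 0.54, the largest error of the 5 members (adjusted p = 0.909, edgeR), and the direction was not stable, since it was -0.083 with total counts only, -0.27 with limma voom and -0.45 without mutant sample 1. Mutant sample 3 thus had the highest Rb1cc1 and the lowest Atg101 level of the 6 samples.

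**Figure D1:**
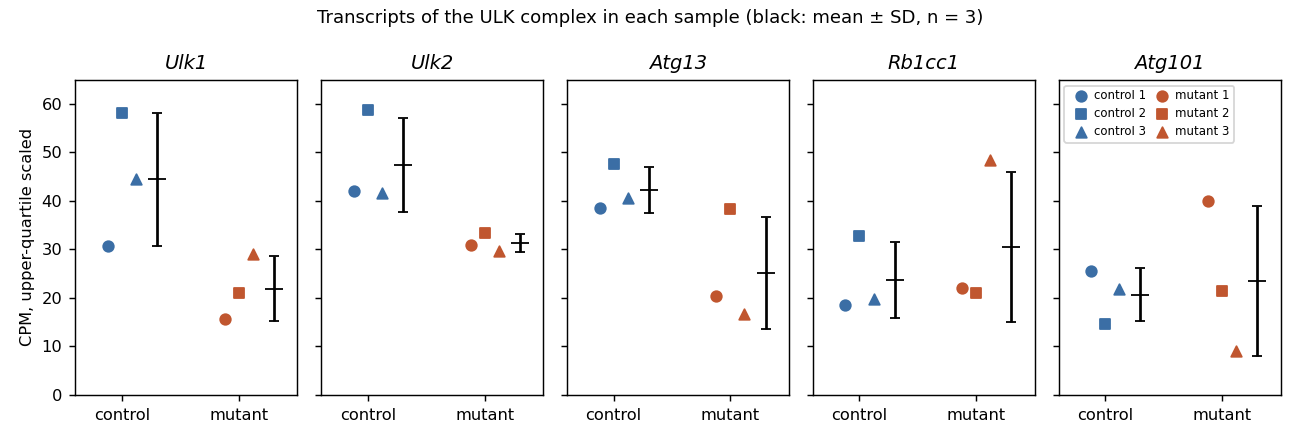
Levels of the 5 ULK complex transcripts in CPM after upper-quartile scaling, 1 panel per gene, with each control (blue) and mutant (orange) sample as a point whose shape gives its number, and the mean ± SD (n = 3) in black. The mutant samples lie below all control samples for Ulk1, Ulk2 and Atg13, and the groups overlap for Rb1cc1 and Atg101.

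Counted over the complex, 3 of 5 members were lower in every mutant sample than in every control sample, and 0 were higher. Over all genes tested, 16.3% were lower without overlap and 14.1% were higher. Both counts were taken with upper-quartile scaling only. The nearest mutant and control samples came close for Ulk1 (29.1 against 30.8 CPM) and Atg13 (38.3 against 38.6 CPM). By the study's own criterion, which asks for p under 0.05 before adjustment and more than a 1.5-fold change, 1 member (Ulk1) was lower and 0 were higher, against 8.92% of all genes lower and 10.9% higher. Over all genes that is 1411 lower and 1726 higher, which became 2335 lower and 1253 higher with total counts only. After adjustment in edgeR, 0 of the 5 members were under 0.05, against 6.79% of all genes, and 1 member was under 0.05 before adjustment. DESeq2 and limma voom also passed 0 members at an adjusted p under 0.05. The median log2 change of the 5 members was -0.60, beside -0.040 over all genes tested. After the length and GC correction these medians were -0.25 and -0.034. The call of Ulk1 at the study's threshold was lost after the length and GC correction, where its log2 change was -0.25 (adjusted p = 0.767, edgeR), and with limma voom (-0.90, adjusted p = 0.223). It was also lost without control sample 2 (log2 change -0.78, adjusted p = 0.462, edgeR), without control sample 3 (-1.01, adjusted p = 0.423, edgeR) and without mutant sample 2 (-0.99, adjusted p = 0.195, edgeR). Without mutant sample 2, Atg13 passed it instead (-1.21, adjusted p = 0.0602, edgeR).

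Levels were compared between members per kilobase of the longest coding transcript in GENCODE M21, which was 5213 bases for Ulk1, 5743 for Ulk2, 3604 for Atg13, 7607 for Rb1cc1 and 1270 for Atg101. In the control samples Atg101 stood highest, at 16.3 ± 4.33 CPM per kilobase, followed by Atg13 at 11.7 ± 1.30, Ulk1 at 8.53 ± 2.62, Ulk2 at 8.27 ± 1.69 and Rb1cc1 at 3.12 ± 1.03 (SD, n = 3 each). Neighbours in this order overlapped between samples, except Rb1cc1, whose highest control value of 4.30 lay below the lowest value of any other member, 5.90 for Ulk1. In the mutant samples the means were 18.5 ± 12.2 for Atg101, 6.95 ± 3.21 for Atg13, 5.45 ± 0.323 for Ulk2, 4.21 ± 1.30 for Ulk1 and 4.01 ± 2.04 for Rb1cc1 (SD, n = 3 each). Atg101 was the highest member in every sample but control sample 2, where Atg13 was. Rb1cc1 no longer stood apart in the mutants, since mutant sample 3 had 6.36 CPM per kilobase. With the union of all annotated exons as the length, a choice made after seeing the data, Rb1cc1 was still the lowest in the control samples, at 1.61 CPM per kilobase, and Ulk2 (7.94) stood above Ulk1 (6.85).

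As a share of the members' summed CPM per kilobase, the kinase Ulk1 held 12.7, 22.1 and 18.2% in control samples 1 to 3 and 6.23, 10.03 and 19.4% in mutant samples 1 to 3. Atg101 held 43.2, 22.9 and 36.7% in the control and 64.99, 42.2 and 24.7% in the mutant samples. Mutant sample 1 was therefore mostly Atg101 by this measure. The share of Rb1cc1 was 5.27, 8.52 and 5.55% in the control and 5.99, 6.90 and 22.0% in the mutants. For the scaffold, mutant sample 3 alone was above the control range.

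**Figure D2:**
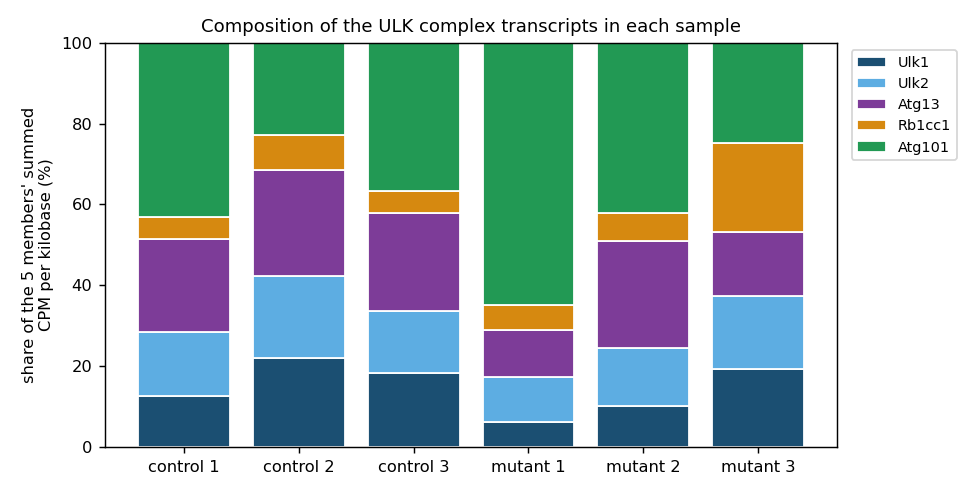
Share of each member in the 5 members' summed CPM per kilobase of the longest coding transcript, in percent, 1 stacked bar per sample. Atg101 takes between 22.9 and 64.99% and Rb1cc1 between 5.27 and 22.0%, the latter in mutant sample 3.

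Ratios of counts within a sample do not depend on how samples were scaled against each other. Of the 10 ratios between members, 2 did not overlap between the genotypes, those of Ulk1 and of Ulk2 to Rb1cc1. They share Rb1cc1, so they are not independent, and the share among ratios of all genes was not counted. Among single genes tested, 16.3% were lower and 14.1% higher without overlap. The counts of Ulk1 were 1.65, 1.78 and 2.25 times those of Rb1cc1 in the control samples and 0.713, 0.996 and 0.602 times in the mutant samples. Every control sample thus had more Ulk1 than Rb1cc1 counts, and no mutant sample did. The mean log2 ratio went from 0.91 ± 0.23 to -0.41 ± 0.37 (SD, n = 3 each), a difference of -1.32 (exact permutation test, two-sided, p = 0.1, the smallest that 3 samples against 3 allow). The counts of Ulk2 were 2.25, 1.79 and 2.11 times those of Rb1cc1 in the control and 1.41, 1.58 and 0.612 times in the mutant samples, a difference of -0.88 in the log2 ratio (exact permutation test, two-sided, p = 0.1). Adjusted over the 10 ratios, both had p = 0.5 (exact permutation test with Benjamini-Hochberg adjustment). The kinases against each other overlapped: Ulk1 counts were 0.732, 0.990 and 1.07 times those of Ulk2 in the control samples and 0.507, 0.631 and 0.983 times in the mutant samples (difference -0.43 on the log2 scale, exact permutation test, p = 0.2). The ratio of Rb1cc1 to Atg101 spread most among the mutant samples, at 0.552, 0.980 and 5.33, with mutant sample 3 far above the rest.

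**Figure D3:**
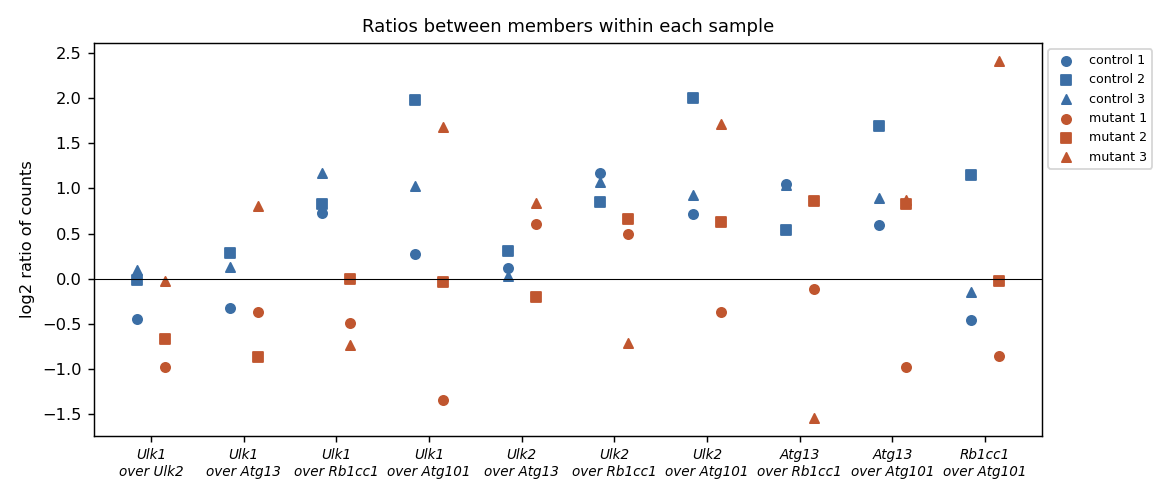
Log2 ratio of the counts of 1 member over another within each sample, for all 10 pairs, with control samples in blue, mutant samples in orange and the shape giving the sample number. Ulk1 over Rb1cc1 and Ulk2 over Rb1cc1 do not overlap between the genotypes, and the other 8 pairs do.

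The changes across all genes differed with transcript length and base composition. Among protein-coding genes tested, the median log2 change was 0.31 among those with the shortest transcripts (204 to 2024 bases) and -0.26 among those with the longest (from 4697 bases). It was 0.32 among those with the lowest GC content (up to 45.6%) and -0.37 among those with the highest (from 55.2%), by quartile. The members lie at different points of both scales. Ulk1, Ulk2 and Rb1cc1 belong to the longest quartile, Atg13 to the one below it and Atg101 to the shortest. Ulk1 and Atg101 are GC-rich (57.95% each), Rb1cc1 is GC-poor (39.1%), and Ulk2 (47.0%) and Atg13 (52.8%) lie between. After a correction of each sample for its trend with length and GC content, the log2 change was -0.25 for Ulk1, -0.38 for Ulk2, -0.34 for Atg13, -0.25 for Rb1cc1 and -0.038 for Atg101. All 5 were then below 0, the unadjusted p of Ulk1 was 0.375 and that of Ulk2 0.107 (edgeR), and the difference in the log2 ratio of Ulk1 to Rb1cc1 was 0.033 in place of -1.32. The median over all genes tested was -0.034 after the correction.

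**Figure D4:**
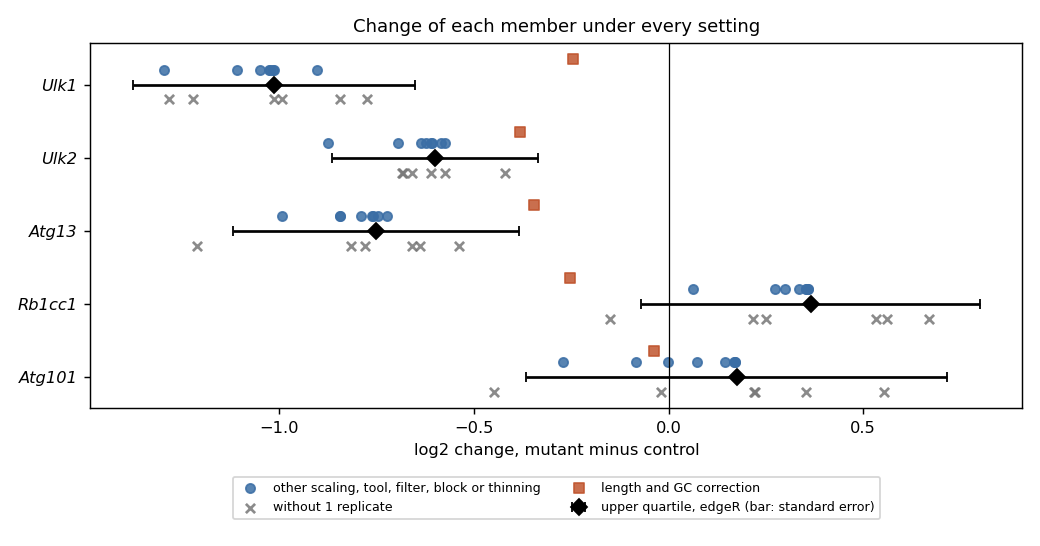
Log2 change of each member, mutant minus control, with upper-quartile scaling and edgeR (black diamond, bar for the standard error), under the other scalings, tools, filters, the replicate block and thinned controls (blue), without each replicate (grey crosses) and after the length and GC correction (orange square). Ulk1, Ulk2 and Atg13 stay below 0 in all settings shown, whereas Rb1cc1 and Atg101 cross it.

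Around the complex, 57 genes in 9 lists were followed, of which 56 passed the filter on low counts. Of these, 8 were lower and 1 was higher at the study's threshold in edgeR, where 8.92% of all genes were lower and 10.9% higher, with a median log2 change of -0.29, or -0.16 after the length and GC correction. The 7 genes of the phagophore proteins recruited after ULK contributed 5 of the 8: Atg9a, Atg2a, Atg2b, Wipi1 and Wipi2. The median of the 7 was -0.70, and -0.27 after the correction. ATG9A is the membrane protein of the vesicles that seed the phagophore, and had 33.0, 57.0 and 51.5 CPM in the controls, against 21.2, 17.4 and 30.5 CPM in the mutants (log2 change -1.03, adjusted p = 0.131, edgeR). ATG2A transfers lipid into the growing membrane. Atg2a had 18.5, 32.2 and 23.6 CPM in the controls, against 5.46, 4.95 and 12.9 CPM in the mutants (log2 change -1.66, adjusted p = 0.113, edgeR). Neither gene overlapped between the genotypes. Both have an adjusted p above 0.05, and after the length and GC correction 0 of the 7 genes passed the study's threshold, as was also the case without control sample 2. The 5 became 1 without control sample 3, 2 without mutant sample 2, 3 without control sample 1, mutant sample 1 or mutant sample 3, and 2 with limma voom.

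Upstream of the complex, 0 of the 5 mTORC1 subunits passed the study's threshold in edgeR or DESeq2, and 1 did with total counts only and without mutant sample 3. By edgeR, all 5 had log2 changes below 0, from -0.96 for Mlst8 to -0.26 for Akt1s1, while their median of -0.44 turned to 0.091 after the length and GC correction. Mtor, the kinase itself, had 20.3, 42.0 and 34.6 CPM in the controls, against 24.0, 28.8 and 27.2 CPM in the mutants, which overlapped. Of the 7 tested genes of AMPK and its upstream kinase, 1 was lower at that threshold, and their median was 0.18, or -0.20 after the correction. This was Prkab1, a regulatory β subunit, with 27.6, 27.0 and 23.9 CPM in the controls, against 7.86, 7.43 and 15.1 CPM in the mutants (log2 change -1.36, adjusted p = 0.111, edgeR). Its log2 change was -1.18 after the length and GC correction, when Prkaa1 (-0.84), a catalytic subunit, was also lower at that threshold and Prkag2 (0.65), a regulatory γ subunit, was higher. Among 8 chaperones and ubiquitin enzymes that act on ULK1, 1 was higher: Cul3, the scaffold of the ubiquitin ligase that ends ULK1 signalling, had 40.6, 51.5 and 44.8 CPM in the controls, against 104, 59.8 and 81.0 CPM in the mutants (log2 change 0.84, adjusted p = 0.116, edgeR), and its log2 change was 0.22 after the correction. The median of the 8 was 0.024, or 0.25 after the correction. With total counts only, 0 of the 8 were higher and 1 was lower. After the correction or without mutant sample 1, 0 were higher, and without mutant sample 2, 2 were. Of 7 transcription factors reported to act on Ulk genes, 0 passed in edgeR, with a median of -0.32, or -0.022 after the correction. With DESeq2, total counts only, the replicate block or without mutant sample 3, 1 of them was lower. Foxo3, a forkhead factor, had the lowest log2 change of them, -0.89, with groups that overlapped, and Tfeb had -0.46.

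Of the partners and substrates, 0 of 8 genes of the VPS34 lipid kinase complex and 0 of 3 of the C9orf72 complex passed the study's threshold in edgeR. Their medians were -0.12 and -0.42, or -0.049 and -0.21 after the length and GC correction. DESeq2 also passed 0 of either. Of the VPS34 genes, 1 was lower with TMM scaling, total counts only, thinned controls and without mutant sample 1 or 3, and 1 C9orf72 gene with limma voom and without mutant sample 1. Some genes of these lists, with control counts like those of the members, were lost from mutant sample 1: Uvrag, which binds the VPS34 complex, had 1380, 1313 and 1340 counts in the controls and 2, 374 and 319 in the mutants, and Nrbf2, Atg16l1 and Tbk1 had 0 counts in mutant sample 1 and between 81 and 319 in the other mutants. Of 8 genes for proteins that bind FIP200, with a median of -0.57, 1 was lower in edgeR. This was the receptor gene Nbr1, with 85.3, 152 and 104 CPM in the controls, against 72.7, 73.1 and 73.9 CPM in the mutants (log2 change -0.63, adjusted p = 0.219, edgeR). After the length and GC correction its log2 change was -0.37, the median of the 8 was -0.30 and 0 passed. The count was also 0 with limma voom and without control sample 2, control sample 3 or any 1 mutant sample, and 3 with total counts only. Of the 3 ULK kinase relatives outside the complex, Ulk4 had 128, 144 and 126 counts in the controls and 0 in every mutant sample. With 3 counts over the pooled mutant libraries taken as the floor, that was at least 33.0-fold lower on the scale of the CPM. This floor covers counting error only, and genes with more control counts were also at 0 in mutant sample 1. In edgeR Ulk4 was the only gene of the 9 lists under 0.05 after adjustment (adjusted p = 0.0464). With 0 counts in the mutants, it passed the filter on low counts through the control samples alone. Some genes outside the lists that were at 0 in every mutant sample had the same adjusted p, among them 4930513N10Rik and 2810410L24Rik. Such genes are counted in the 6.79% of all genes under 0.05. DESeq2 also put Atg2a and Prkab1 under 0.05, and limma voom Stk36. In edgeR, Ulk4 was not under 0.05 without the low-count filter used here or when a mean of 50 counts was required. Nor was it with the replicate block, with thinned controls, after the length and GC correction, or without any 1 replicate other than mutant replicate 1. Stk36 had 98, 212 and 125 counts in the controls and 0, 21 and 0 in the mutants, which did not overlap, and it was not under 0.05 (adjusted p = 0.418, edgeR). Ulk3 had 3.15, 3.77 and 3.70 CPM in the controls, against 2.18, 5.72 and 9.27 CPM in the mutants, and the groups overlapped.

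**Figure D5:**
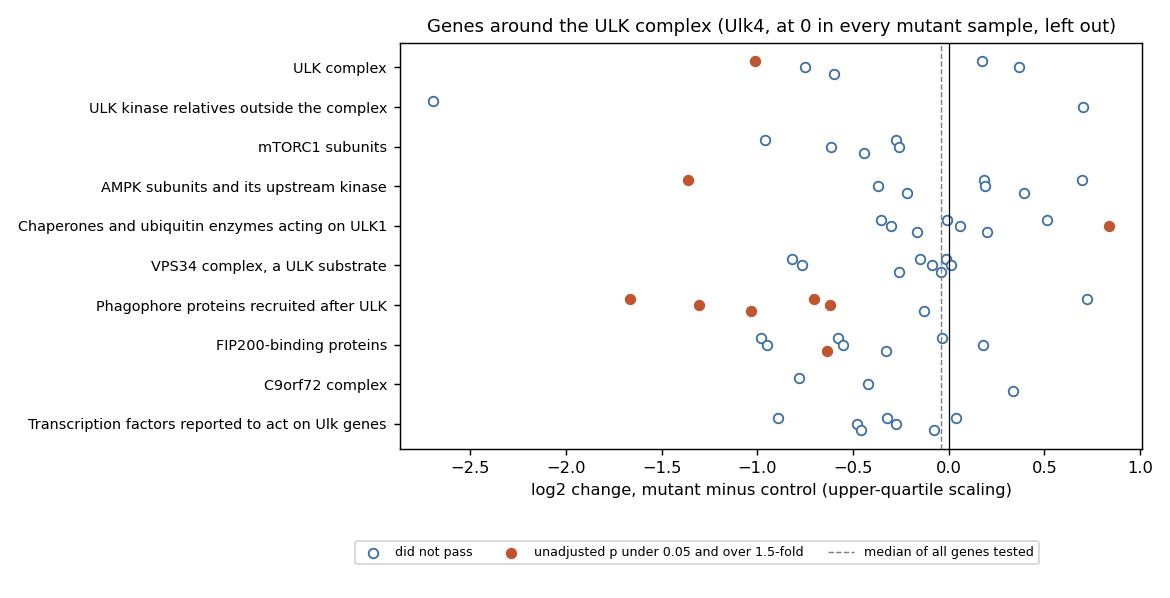
Log2 change, mutant minus control, of each tested gene of the ULK complex and of the 9 lists around it, with filled orange points past the study's threshold (p under 0.05 before adjustment and over 1.5-fold), open points not past it, and a dashed line at the median of all genes tested. Of the filled points, 5 belong to the phagophore proteins recruited after ULK, and Ulk4 is left out because it had 0 counts in every mutant sample.

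The genes whose pattern over the 6 samples was most like that of each member were taken from 9364 others with a mean of at least 10 CPM, by Pearson's r of log2 CPM. For Ulk1 these were Fbrs (r = 0.995), Clstn1 (0.990) and Cnot3 (0.989), for Ulk2 Pdk2 (0.993), Farp1 (0.991) and Marveld1 (0.990), and for Atg13 Elk3 (0.993), Arhgap17 (0.993) and Mpp5 (0.989). For Rb1cc1 they were Ppfibp1 (0.976), Supt16 (0.971) and Jmjd1c (0.968), and for Atg101 Mrpl16 (0.996), Tmbim4 (0.994) and Rars (0.993). No member is among the genes listed for another. With so few listed out of 9364, this does not show how closely the members vary together. The correlations are a description over 6 samples that share their libraries, depths and genotypes with each other.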

How the data were processed

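Proximal incisors of 3 control and 3 mutant mice were sequenced as single reads of 75 bases. The authors trimmed and aligned the reads in Partek Flow with the mm10 genome, and their processing notes name TopHat2 2.0.8. The values the authors deposited are estimated counts, 1 per gene and sample, that had not been normalized. Genes had already been filtered by the authors, by a rule not given in the sources used here. The lowest of the genes' highest counts was 10. The counting model and annotation are not given in the sources used here. The authors' table of their own comparison (p-values, ratios, fold changes and group means) was not used.

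After rounding, genes were filtered (minimum count 10, total 15) and tested between genotypes in edgeR 4.0.16 under R 4.3.3. Upper-quartile factors scaled the libraries, no covariate entered the quasi-likelihood model, tests were two-sided and Benjamini-Hochberg adjustment covered 15826 genes. A standard error is the log2 change divided by the root of F. The labels give separate samples. The p-values of the fits set the difference between the groups against the spread between samples within them. Ratios were tested by exact permutation (scipy 1.17.1). The floor for a count of 0 was set at 3 counts, or 0.655 CPM for mutant 1, the shallowest library. Gene models came from GENCODE M21 (GRCm38), where 18637 symbols were found as written and 221 by an older name, while 202 were missing. Promoters came from RefSeq (GRCm38.p6), which held 4 of the 5 members in the table used. The fit and the ratio test were tested on simulated data.

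The members and gene lists were chosen with earlier results of these data known. Genes named with values were the members, Fgfr1, up to 2 genes per list and direction past the study's threshold with the smallest p, and the 3 genes most like each member. Mtor, Mlst8, Akt1s1, Prkaa1, Prkag2, Foxo3, Tfeb, Ulk3, Stk36, Uvrag, Nrbf2, Atg16l1 and Tbk1 were chosen for mention once their values were known. Other scalings, filters, DESeq2 1.42.0, limma 3.58.1, thinning of control counts to 9484797, the length and GC correction (a spline per sample, trained on 12336 genes), the replicate block and the fits without each replicate were alternatives.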

Additional observations from a re-analysis of the deposited data

How the results depend on the processing

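Over the 15 alternatives, the log2 changes of Ulk1, Ulk2 and Atg13 stayed below 0, none of the 5 members reached an adjusted p under 0.05, and adjusted p ran from 0.0849 to 0.767 for Ulk1, 0.118 to 0.610 for Ulk2, 0.0602 to 0.731 for Atg13, 0.481 to 0.957 for Rb1cc1 and 0.466 to 0.999 for Atg101. Leaving out 1 replicate gave log2 changes from -1.28 to -0.78 for Ulk1, -0.69 to -0.42 for Ulk2, -1.21 to -0.54 for Atg13, -0.15 to 0.67 for Rb1cc1 and -0.45 to 0.55 for Atg101. Rb1cc1 changed sign with the length and GC correction (-0.25) and without mutant replicate 3 (-0.15). Atg101 did so with total counts only (-0.083), limma voom (-0.27), the replicate block (-0.0012), the length and GC correction (-0.038) and without control replicate 2 (-0.019) or mutant replicate 1 (-0.45). Fgfr1 had an adjusted p of 0.00323 with DESeq2 (log2 change -1.41), the only alternative under 0.05, and of 0.261 after the length and GC correction (-0.74). The cause of these shifts was not tested.

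The number of members past the study's threshold, 1, was 2 with edgeR's TMM, 3 with total counts only, 2 without the low-count filter, 2 with the replicate block, 0 with limma voom and 0 after the length and GC correction, and ran from 0 to 1 without 1 replicate. In the 9 other lists, the 8 lower genes became 14 with total counts only and 3 after the length and GC correction, and ran from 2 (without control replicate 2) to 8 without 1 replicate, with 3 without control replicate 3 and 5 without mutant replicate 2. The 1 higher gene became 0 with total counts only and 2 with the replicate block, and ran from 0 to 2 without 1 replicate. The number of non-overlapping ratios, 2, was 0 after the length and GC correction and ran from 2 to 6 without 1 replicate. The median log2 change over every gene tested was -0.30 under total counts only, in place of -0.040. Over all genes, those with an adjusted p under 0.05 went from 1074 to 229 when unfiltered, 370 when a mean of 50 counts was required, 508 with the replicate block, 378 with thinned controls, 142 after the length and GC correction and 76 to 606 without 1 replicate. Deviations of same-numbered samples from their group means correlated by 0.0472, 0.00937 and 0.0548. Taken within groups of 3, these values cannot decide whether the numbers pair the samples. The paper's methods speak of 3 pairs of samples from each group, without saying what formed a pair or which samples belong together. The lower depth of the mutant libraries, and the genes missing from mutant replicate 1 at control counts like those of the members, limit every value given here.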
